A study of Homo sapiens with 12 samples.

Results

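Translation initiation factor genes were followed in LNCaP cells, an androgen-responsive human prostate cancer line, after metformin or AICAR. The genes were taken by name, from every probe whose platform symbol begins with EIF and a digit, leaving out the eIF2 kinases listed as EIF2AK. This rule took 50 probes of 39 genes among 24541 transcripts. Of these genes, 4 carry the old symbols EIF2C1 to EIF2C4 and are the Argonaute genes AGO1 to AGO4, which act in RNA silencing and were counted apart. The other 35 genes, on 44 probes, encode subunits of eIF1A, eIF2, eIF2B, eIF3, eIF4, eIF5, eIF5A and eIF5B, or the eIF4E-binding proteins. The groups were cells given 5 mM metformin, cells given 5 mM AICAR, and control cells without either compound. Treatment lasted 24 h by the sample labels, while a legend of the study gives another time. Each pair of groups was compared on 4 two-colour arrays, which were 2 numbered replicates with a dye-swap pair each, so 12 arrays were available in all. The labels do not say what a replicate is. Each was read here as a culture whose RNA extracts served all arrays with its number. AICAR is taken up and phosphorylated to an AMP mimic that activates AMPK, and metformin is a biguanide that slows mitochondrial respiration.

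What the authors deposited is a log ratio between 2 RNAs for each feature and array, with no level, so a gene abundant in both groups and a gene near background cannot be separated. For the same reason the line could not be checked by the level of its markers: KLK3, KLK2, TMPRSS2 and FOLH1 were found by name and gave ratios only. The ratio was taken to be log2 with Cy5 on top. Neither point is stated in the labels or methods, so the direction rests on limma's convention, the dyes in the labels and 4 check genes, and is called likely. Read this way, the stress genes DDIT3, DDIT4 and SESN2 were higher with metformin than in control cells, by 4.97, 3.28 and 2.48, and PPIF, which encodes cyclophilin D, was lower, each with the same sign on all 4 arrays. A gene passed the test with an adjusted p below 0.05 in limma and a log2 ratio beyond 0.7 in either direction, and the error given is the moderated SE over 2 cultures. In bulk RNA, fewer cells of a kind and less RNA per cell cannot be told apart.

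Initiation begins when eIF2, carrying GTP and the initiator tRNA, joins the small ribosomal subunit with eIF1, eIF1A, eIF3 and eIF5. The eIF4 proteins bind the cap of an mRNA, unwind its leader and bring it to this complex, which scans to the start codon. There eIF5 stimulates hydrolysis of the GTP on eIF2, eIF5B helps to join the large subunit, and eIF2B reloads eIF2 with GTP. Stress kinases phosphorylate the alpha subunit of eIF2, which turns eIF2 into an inhibitor of eIF2B. Hypophosphorylated 4E-BP proteins hold eIF4E away from eIF4G when mTORC1 is inactive. Both switches act on the proteins, which the arrays did not measure.

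With metformin against control, EIF2S2 and EIF5 rose and EIF3B fell among the 35 genes. For scale, 1.5% of all transcripts passed as higher and 1.23% as lower in this comparison. Here and below, all transcripts include 10055 array features without a gene name. The 35 genes had a median log2 ratio of 0.01, with 18 above 0, against a median of -0.0001 over all transcripts. An unadjusted p under 0.05 was reached by 18 of the 35, against 17.5% of all transcripts. AICAR against control had EIF5 lower and no gene of the 35 passed as higher, where 2.89% of all transcripts passed as lower and 0.456% as higher. At an unadjusted p under 0.05, 13 of the 35 differed in that comparison, where 20.9% of all transcripts did, and the count of higher genes by the other fits tried was 0 to 2. The median was 0.12, with 21 genes, or 60.0%, above 0, and 60.4% of all transcripts were above 0 as well. With metformin against AICAR, EIF2S2 and EIF5 rose and EIF4A1 and EIF4E fell, where 4.59% of all transcripts passed as higher and 2.01% as lower. The median of the 35 was -0.23, with 12 above 0, against a median of -0.03 over all transcripts. Of the 35, 16 had an unadjusted p under 0.05 there, against 26.4% of all transcripts. In all, 5 of the 35 genes passed in at least 1 comparison. The matching share of all transcripts was not taken, so this count has no background to be read against. Each comparison shares its extracts with the other two, so the 3 results are not independent.

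**Figure D1:**
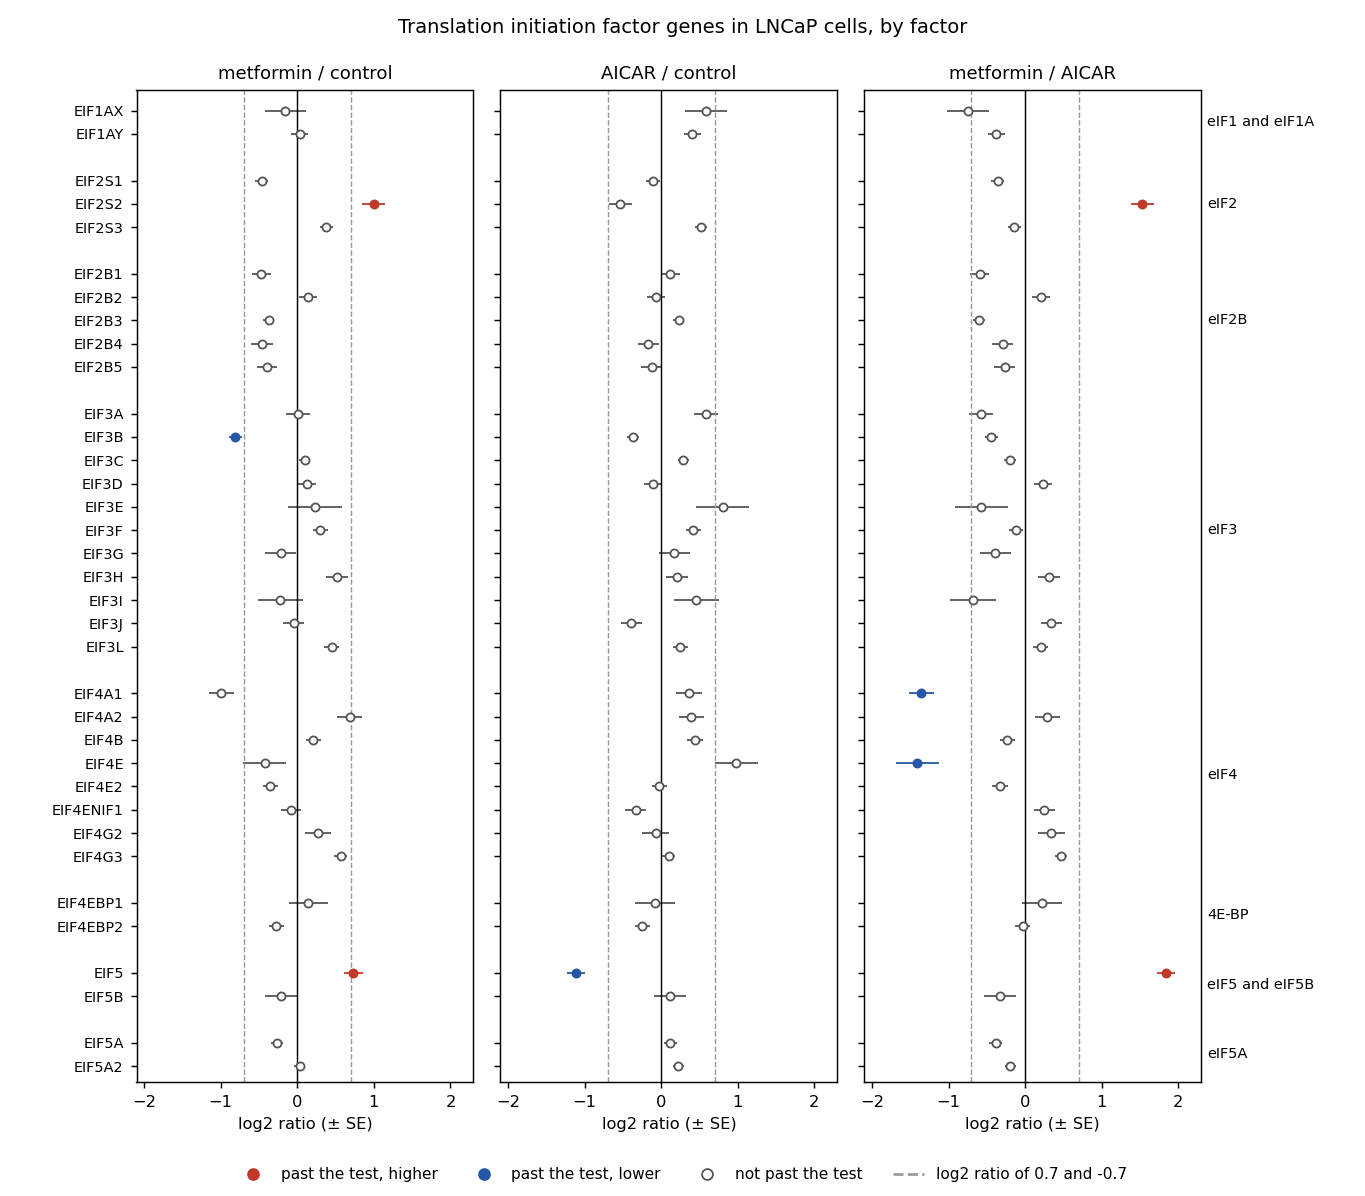
Fitted log2 ratios (horizontal axis, bars are ± SE over 2 cultures) of the 35 initiation factor genes, grouped by factor down the page, for metformin over control, AICAR over control and metformin over AICAR. Filled red and blue points passed the test as higher and lower, and dashed lines mark 0.7 and -0.7. Most genes lie between the dashed lines, and the filled points are EIF2S2, EIF3B, EIF4A1, EIF4E and EIF5.

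In eIF2, the gene of the beta subunit passed the test and those of the alpha and gamma subunits did not, and the difference between the genes was not tested. EIF2S2, whose product binds eIF5 and eIF2B, gave log2 ratios of 1.34 and 0.95 on the culture 1 arrays of metformin against control and 0.57 and 1.13 on those of culture 2. All 4 arrays were above 0, and the fitted ratio was 1.00 (SE 0.15, adjusted p = 0.0404), or 1.99-fold. The direct ratios of the comparison were 1.15 in culture 1 and 0.85 in culture 2, and those obtained through the AICAR extract were 1.07 and 0.91. The call ended in a fit to the direct ratios alone (1.00, adjusted p = 0.0918), and without the 3 arrays whose description numbers in the labels stand apart (1.02, adjusted p = 0.0711). Those 3 are both arrays of metformin against control in culture 1 and 1 array of AICAR against control in culture 1. Without them, culture 1 has no direct ratio of metformin to control and a single dye orientation of AICAR against control. Under AICAR, EIF2S2 was below control on all 4 arrays, at -0.36 and -0.18 in culture 1 and -0.90 and -0.70 in culture 2. Its fitted ratio of -0.53 did not pass (SE 0.15, adjusted p = 0.136). Set directly against AICAR, metformin gave 1.43, 1.26, 1.57 and 1.85, and a fitted ratio of 1.53 (SE 0.15, adjusted p = 0.00927), a 2.89-fold difference.

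EIF2S1 encodes the alpha subunit, which holds the serine that the stress kinases phosphorylate. Its 4 arrays of metformin against control gave -0.53 and -0.23 in culture 1 and -0.67 and -0.27 in culture 2. All lay below 0, and the fitted ratio of -0.47 missed the test (SE 0.09, adjusted p = 0.0666). With AICAR the ratio to control was -0.11 (adjusted p = 0.543), with 1 array above 0 and 3 below. Metformin over AICAR was -0.36 (adjusted p = 0.0704), again with all 4 arrays below 0. EIF2S3 encodes the gamma subunit, which binds GTP and the initiator tRNA. With AICAR it was above control on all 4 arrays, from 0.36 to 0.76, and its ratio of 0.52 had an adjusted p of 0.0407 without reaching the size of 0.7. With metformin it was above control on all 4 arrays too, with a ratio of 0.38 (SE 0.08, adjusted p = 0.0922), and its 2 probes gave 0.68 and 0.08.

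No gene of the guanine nucleotide exchange factor eIF2B passed the test in any of the 3 comparisons. With metformin against control, 4 of the 5 subunit genes were below 0, with a median of -0.39. The alpha, gamma, delta and epsilon genes EIF2B1, EIF2B3, EIF2B4 and EIF2B5 had ratios of -0.47, -0.38, -0.46 and -0.39, each with all 4 arrays below 0. Each had an unadjusted p under 0.05, as did 18 of the 35 initiation factor genes and 17.5% of all transcripts. Their adjusted p values were 0.144, 0.0806, 0.178 and 0.223. EIF2B2, the gene of the beta subunit, had a ratio of 0.14, with 1 array at -0.40 and the rest between 0.12 and 0.49. EIF2B3, whose product shares the catalytic subcomplex with the epsilon subunit, was the steadiest, at -0.37 in culture 1 and -0.38 in culture 2. Against AICAR, metformin gave EIF2B3 a ratio of -0.60 (SE 0.08, adjusted p = 0.0153), past the p threshold and short of the size. The ratios of AICAR to control for the 5 genes ranged from -0.17 for EIF2B4 to 0.23 for EIF2B3.

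**Figure D2:**
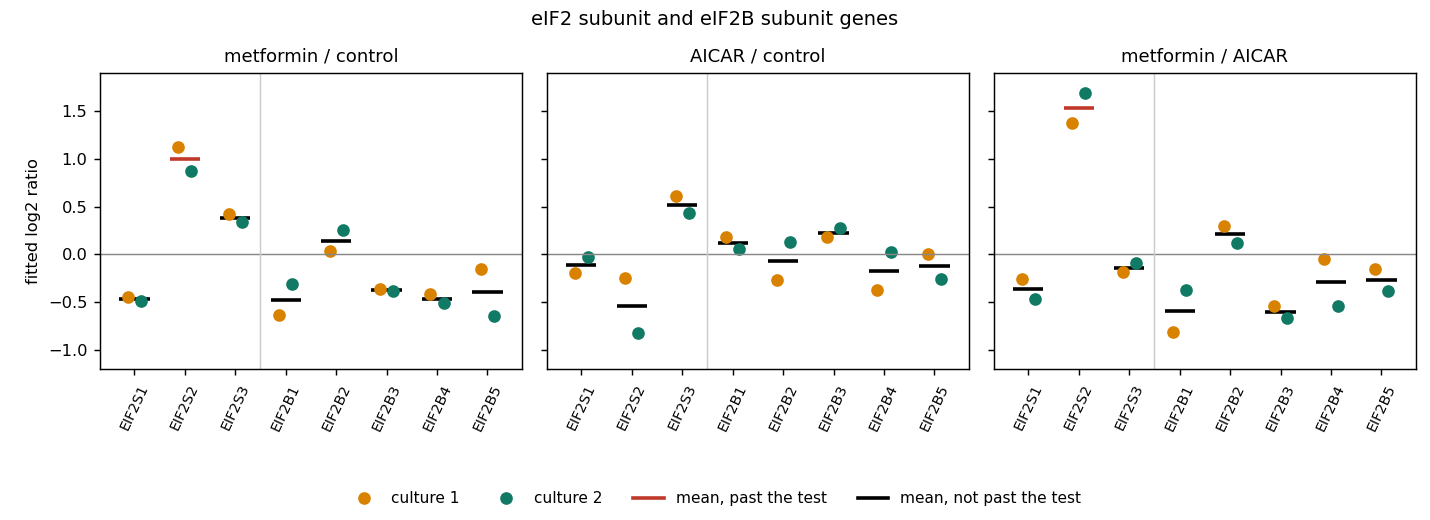
Fitted log2 ratios (vertical axis) of the 3 eIF2 subunit genes and the 5 eIF2B subunit genes in culture 1 and culture 2 (points) with their mean (lines), for metformin over control, AICAR over control and metformin over AICAR. A red line marks a gene past the test. EIF2S2 stands above all other genes in the panels of metformin over control and metformin over AICAR, where EIF2S1 and 4 of the 5 eIF2B genes lie below 0 in both cultures.

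Around eIF2, 18 of 19 genes of a list of its kinases, phosphatases and downstream genes were measured. The 4 kinase genes EIF2AK1 to EIF2AK4 did not pass in any comparison, and with metformin against control their ratios ran from -0.36 to 0.34. Metformin against control had 6 of the 18 past the test as higher and 1 as lower, against 1.5% and 1.23% of all transcripts. The list was chosen with earlier results of these data known, so its counts are a description and no test of the list. The list median was 0.23. The 6 were ATF4 (1.13), the transcription factor whose mRNA is translated when eIF2 is phosphorylated, and DDIT3 (4.97), TRIB3 (3.80), ASNS (2.55), ATF3 (2.79) and SESN2 (2.48), genes known to be induced downstream of it. GCN1, the partner that activates the kinase encoded by EIF2AK4, fell with a ratio of -1.02 (SE 0.13, adjusted p = 0.0286), between -1.15 and -0.95 on its 4 arrays. Under AICAR, 5 of 18 had an unadjusted p under 0.05 against control, where 20.9% of all transcripts did. Past the test were 2 as higher than control and none as lower, against 0.456% and 2.89% of all transcripts. These were SESN2 (1.33) and PPP1CB, a catalytic subunit of protein phosphatase 1, with a ratio of 1.03 (SE 0.09, adjusted p = 0.0121). With metformin against AICAR, the same 6 genes passed as higher, and PPP1CB (-0.72) and GCN1 (-0.72) as lower. Of all transcripts, 4.59% passed as higher and 2.01% as lower there. DDIT3 and SESN2 had also served to check the direction of the ratios, so they are no separate evidence of it.

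The large scaffold eIF3 binds the small ribosomal subunit and links it to the mRNA, and 11 of its genes were measured. One of them passed, EIF3B, which encodes a core subunit with an RNA recognition motif. Its arrays of metformin against control gave -0.26 and -1.31 in culture 1 and -0.26 and -1.36 in culture 2. All 4 were below 0, and the fitted ratio was -0.81 (SE 0.08, adjusted p = 0.0197), or 0.571-fold. The lower value of each culture came from the array with metformin in Cy5, so the dye-swap partners lay further apart than the cultures, whose fitted ratios were -0.84 and -0.78. The same was seen with AICAR, where the ratios to control were -0.91 and -0.81 with AICAR in Cy5, and 0.20 and 0.01 with control in Cy5 (fitted ratio -0.37, adjusted p = 0.0902). Both dye orientations are balanced, and a fit of the 12 arrays with a dye term left the ratios at -0.81 and -0.37. For metformin against control the call on EIF3B ended with the direct ratios alone (-0.80, adjusted p = 0.0836), and without the 3 arrays apart (-0.58, adjusted p = 0.205). The dyes are not balanced in that last fit. Its only culture 1 array of AICAR against control is that with control in Cy5, at 0.20.

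The other 10 eIF3 genes did not pass in any comparison. With metformin against control, 7 of the 11 were above 0 with a median of 0.09, and the highest was EIF3H with a ratio of 0.51 (adjusted p = 0.158) and 4 arrays between 0.11 and 0.76. Under AICAR, 8 were above control with a median of 0.25. The highest was EIF3E with a ratio of 0.80 (SE 0.35, adjusted p = 0.282), which stood at 1.17 in culture 1 and 0.43 in culture 2. The same gene showed opposite signs in the cultures under metformin, at 0.98 in culture 1 and -0.52 in culture 2, where its fitted ratio to control was 0.23 (SE 0.35, adjusted p = 0.836). EIF3J, the gene of a loosely bound subunit, was the lowest with AICAR (-0.39, adjusted p = 0.208) and the highest with metformin against AICAR (0.34, adjusted p = 0.208). EIF3I was lowest in that last comparison, with a ratio of -0.68 (adjusted p = 0.233) that came from culture 2 (-1.29) far more than from culture 1 (-0.07). EIF3C has a near-identical copy, EIF3CL, and which of the copies its probes measured cannot be told apart here.

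In the eIF4 group, the mRNAs of the helicase EIF4A1 and of the cap-binding protein EIF4E were lower with metformin than with AICAR. EIF4A1 gave -1.26 and -0.83 on the culture 1 arrays of metformin against AICAR and -1.93 and -1.21 on those of culture 2. The fitted ratio was -1.35 (SE 0.17, adjusted p = 0.0147), or 0.392-fold, and it kept its call in each alternative fit that gave a test. Against control, metformin gave EIF4A1 values of -1.13, -0.31, -1.52 and -1.18, all below 0, and a ratio of -0.99 that narrowly missed the test (SE 0.17, adjusted p = 0.0544). It passed where the arrays were scaled to a common spread (adjusted p = 0.0395). It also passed in the 3 fits that take arrays or ratios of the same extracts as separate points, which count more points than the 2 cultures. With AICAR all 4 arrays were above control, from 0.03 to 0.69, with a fitted ratio of 0.36 (adjusted p = 0.307). EIF4A2, a close paralogue of EIF4A1, had the highest ratio of the group with metformin against control, 0.68 (SE 0.16, adjusted p = 0.112). It was above 0 on all 4 arrays, from 0.54 to 0.89, where those of EIF4A1 lay below 0. The difference between the 2 paralogues was not itself tested.

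EIF4E gave log2 ratios of -1.25, -1.43, -1.54 and -1.32 on the 4 arrays of metformin against AICAR, the narrowest range in that comparison among the 5 genes that passed in any. The fitted ratio was -1.41 (SE 0.28, adjusted p = 0.0429), or 0.377-fold. The call ended where arrays were scaled to a common spread (-1.39, adjusted p = 0.0709) and without the 3 arrays apart (-1.40, adjusted p = 0.0706). How the difference divided between the 2 compounds varied with the culture. In culture 1, metformin against control gave 0.05 and 0.12 and AICAR against control 1.44 and 1.55. In culture 2, metformin against control gave -1.10 and -0.88 and AICAR against control 0.53 and 0.48. Neither fitted ratio to control passed, at -0.43 for metformin (SE 0.28, adjusted p = 0.554) and 0.98 for AICAR (SE 0.28, adjusted p = 0.144).

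**Figure D3:**
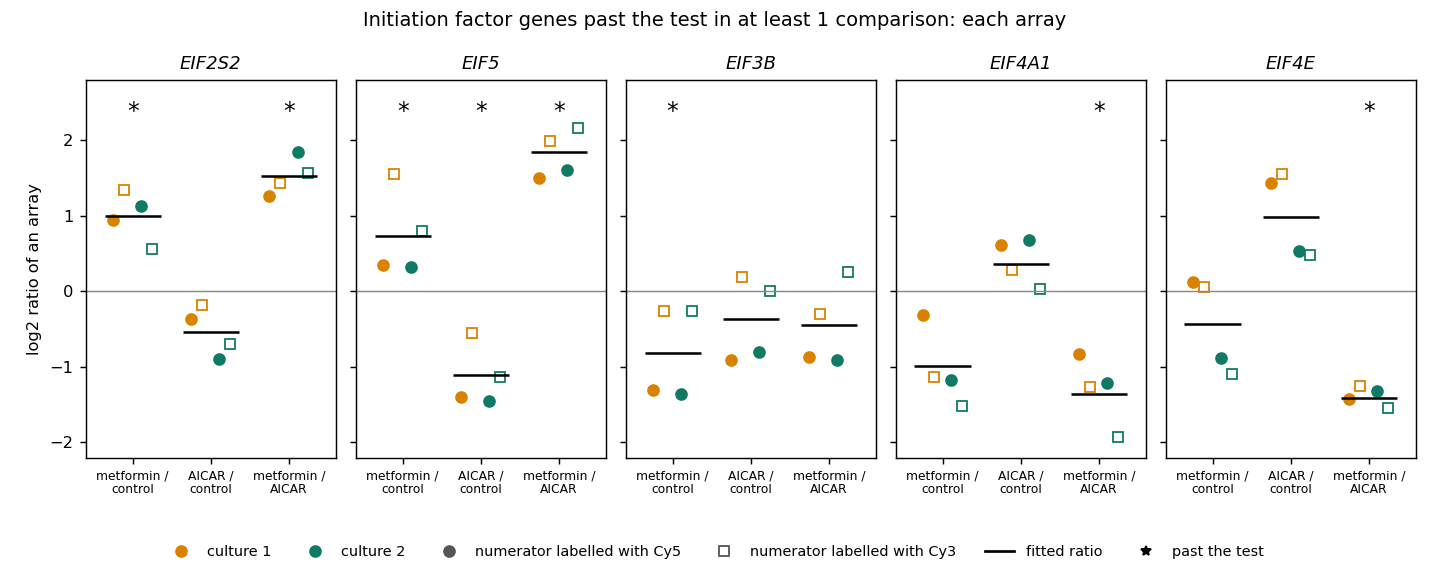
Log2 ratios on each array (vertical axis) of the 5 initiation factor genes past the test in at least 1 comparison, for metformin over control, AICAR over control and metformin over AICAR. Orange and green mark cultures 1 and 2, filled circles arrays with the numerator in Cy5, open squares arrays with it in Cy3, and lines the fitted ratio. The 4 arrays of EIF4E in metformin over AICAR sit between -1.54 and -1.25, while its ratios to control separate by culture, and those of EIF3B separate by dye.

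The 250 bases before the RefSeq start site of EIF4A1 and EIF4E are shown because these genes gave the lowest ratios of metformin to AICAR. They come from the plus strand at chr17:7572575-7572824 and the minus strand at chr4:98929134-98929383 of GRCh38.p14, read 5′ to 3′ along the gene. Capitals mark E-boxes, the letters CACGTG that MYC and related factors bind, which begin 225 and 72 bases before the EIF4E start site.
EIF4A1: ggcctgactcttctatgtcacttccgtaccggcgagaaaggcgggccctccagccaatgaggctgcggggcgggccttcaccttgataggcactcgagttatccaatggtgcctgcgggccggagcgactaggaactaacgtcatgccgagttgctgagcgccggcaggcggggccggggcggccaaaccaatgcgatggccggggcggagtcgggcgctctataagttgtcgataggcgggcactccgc
EIF4E: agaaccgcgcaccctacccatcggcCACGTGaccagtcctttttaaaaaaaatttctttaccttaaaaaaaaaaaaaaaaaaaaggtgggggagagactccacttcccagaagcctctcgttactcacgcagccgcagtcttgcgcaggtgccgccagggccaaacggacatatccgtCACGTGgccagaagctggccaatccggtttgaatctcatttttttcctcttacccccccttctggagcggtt
Of 28 initiation factor genes with a window of 300 bases, 5 held the E-box (EIF2B3, EIF3F, EIF4B, EIF4E and EIF5A2), and 7.43% of 27305 windows of the same length held it. The ETS letters CCGGAAGT were in 5 of the 28 (EIF2B1, EIF2B2, EIF3I, EIF4E2 and EIF5A2) and in 4.44% of all windows. Neither TGATGNAAT, the element that ATF4 shares with C/EBP factors, nor the cAMP response element TGACGTCA was found in the 28, and these were in 1.02% and 1.98% of all windows. No motif contains the letters of another, all were searched on both strands, and a match is a description of the sequence only.

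Of the scaffold proteins, EIF4G1 was not among the named probes. EIF4G3, which encodes its homologue, gave 0.36, 0.67, 0.72 and 0.37 with metformin against control, and a fitted ratio of 0.56 (SE 0.08, adjusted p = 0.0372). This reached the p threshold without the size of 0.7, as did its ratio of metformin to AICAR, 0.47 (adjusted p = 0.0307). EIF4ENIF1, the gene of a carrier that takes eIF4E into the nucleus, had the lowest ratio of the group with AICAR against control (-0.34, adjusted p = 0.247). EIF4B, EIF4E2 and EIF4G2 had ratios between -0.35 and 0.44 over the 3 comparisons, and none passed. The 4E-BP genes did not pass either. EIF4EBP1 gave 0.26, 0.30, 0.06 and 0.02 with metformin against control (fitted ratio 0.15, adjusted p = 0.866). AICAR against control gave it -0.39 and -0.59 in culture 1 and 0.43 and 0.18 in culture 2, so the cultures had opposite signs. EIF4EBP2 was below 0 on all 4 arrays of metformin against control, from -0.61 to -0.09, with a ratio of -0.27 (adjusted p = 0.247).

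Of a list of 26 genes around the cap and mTORC1, likewise chosen with earlier results known, 22 were measured. With metformin against control, 10 of 22 had an unadjusted p under 0.05, against 17.5% of all transcripts, and the median was -0.05. Past the test were 3 as higher and none as lower, where 1.5% of all transcripts passed as higher and 1.23% as lower. These were DDIT4 (3.28), an inhibitor of mTORC1 signalling, PDCD4 (0.87), whose product binds and inhibits the helicase eIF4A, and MKNK2 (1.60), a kinase that phosphorylates eIF4E. DDIT4 had also served to check the direction of the ratios, so it is no separate evidence of it. PDCD4 was above 0 on all 4 arrays, from 0.44 to 1.55 (SE 0.11, adjusted p = 0.0312), and MKNK2 from 1.31 to 1.99 (SE 0.24, adjusted p = 0.0433). Under AICAR, DDIT4 fell against control (-1.34, SE 0.14, adjusted p = 0.0171) and no gene passed as higher, with 9 of 22 at an unadjusted p under 0.05, against 20.9% of all transcripts. The shares past the test there were 2.89% of all transcripts as lower and 0.456% as higher. With metformin against AICAR, DDIT4 (4.62), MKNK2 (2.35) and PDCD4 (0.87) passed as higher, and TSC2 (-0.74), a subunit of the complex that holds mTORC1 inactive, as lower. Over all transcripts, 4.59% passed as higher and 2.01% as lower in this comparison.

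EIF5, the gene of the GTPase-activating protein of eIF2, was the only 1 of the 35 that passed in all 3 comparisons. With metformin against control its arrays gave 1.55 and 0.36 in culture 1 and 0.79 and 0.32 in culture 2, all above 0. The fitted ratio was 0.73 (SE 0.12, adjusted p = 0.0484), or 1.66-fold. Its arrays of AICAR against control gave -0.55 and -1.40 in culture 1 and -1.13 and -1.46 in culture 2, all below 0. The fitted ratio was -1.11 (SE 0.12, adjusted p = 0.0171), or 0.463-fold. Set directly against AICAR, metformin gave 2.00, 1.50, 2.17 and 1.61 and a fitted ratio of 1.84 (SE 0.12, adjusted p = 0.00461), a 3.59-fold difference. This was the largest ratio in size of the 35 genes over the 3 comparisons, and the cultures gave 1.81 and 1.88. On every dye-swap pair of EIF5, the array with the numerator of the ratio in Cy5 read lower than its partner. The ratio of metformin to control ended its call with the direct ratios alone (0.76, adjusted p = 0.144), with median-centred arrays (0.73, adjusted p = 0.0545), with scaled arrays (0.75, adjusted p = 0.073), with robust variances (0.73, adjusted p = 0.0538) and without the 3 arrays apart (0.88, adjusted p = 0.131). The fall with AICAR ended its call only without those 3 arrays (-0.93, adjusted p = 0.115), among the fits with a test. In that fit the only culture 1 array of AICAR against control is that with control in Cy5, at -0.55.

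The sequence before the start site of EIF5 is shown because it moved in opposite directions under the 2 compounds. It is read on the plus strand at chr14:103333987-103334236 of GRCh38.p14, and none of the 4 motifs searched was in its window, so no letters are in capitals.
EIF5: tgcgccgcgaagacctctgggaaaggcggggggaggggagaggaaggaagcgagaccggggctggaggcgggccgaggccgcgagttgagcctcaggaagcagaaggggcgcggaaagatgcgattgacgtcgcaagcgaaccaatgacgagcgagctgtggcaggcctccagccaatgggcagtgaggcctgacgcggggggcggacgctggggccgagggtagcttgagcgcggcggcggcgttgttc

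The genes of the remaining factors did not pass the test in any comparison. EIF5B, the gene of the GTPase that helps to join the ribosomal subunits, had opposite signs in the cultures with metformin against control, 0.22 in culture 1 and -0.65 in culture 2 (fitted ratio -0.21, adjusted p = 0.719). EIF1AX, the gene of a scanning factor, had the lowest ratio of metformin to AICAR outside eIF4, at -0.74 (SE 0.27, adjusted p = 0.17). One of its arrays of AICAR against control, in culture 1 with control in Cy5, read 2.11 while its other 3 ran from -0.27 to 0.33. EIF1AY, its near-identical homologue, had fitted ratios of 0.03, 0.41 and -0.38 in the 3 comparisons, and signal shared between these 2 genes cannot be told apart. EIF5A carries hypusine and promotes elongation and termination, and its ratios were -0.26 for metformin to control (adjusted p = 0.194), 0.12 for AICAR to control and -0.38 for metformin to AICAR (adjusted p = 0.0518). For metformin to control, the 2 probes of EIF5A gave 0.04 and -0.56. EIF5A2, its paralogue, had ratios of 0.03, 0.22 and -0.19, none of which passed.

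Several probes measured 8 of the 35 genes, and no pair of probes of a gene differed by more than 1 in any comparison. The widest gaps were in metformin against AICAR. There the 2 probes of EIF2S3 gave 0.24 and -0.52, those of EIF3C 0.15 and -0.54, and those of EIF5A -0.02 and -0.74. The lower EIF5A probe passed the test on its own (adjusted p = 0.0219), which the mean of both did not. The 4 probes of EIF4A2 lay between 0.37 and 0.84 for metformin against control, and the 2 probes of EIF4G2 differed by less than 0.03 in each comparison. The 5 genes that passed had 1 probe each, so none of them has a second probe as a check.

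**Figure D4:**
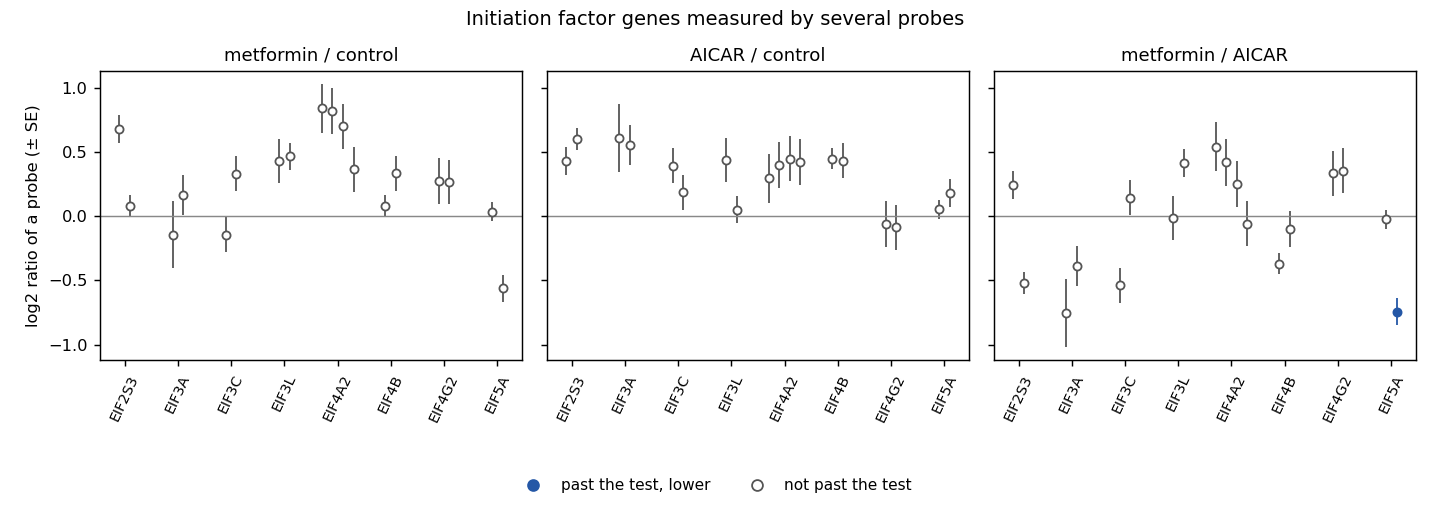
Log2 ratios of single probes (vertical axis, bars are ± SE over 2 cultures) for the 8 initiation factor genes with several probes, for metformin over control, AICAR over control and metformin over AICAR. A filled blue point passed the test as lower. The probes of EIF2S3, EIF3C and EIF5A lie apart in metformin over AICAR, by 0.76, 0.68 and 0.72, and those of EIF4G2 coincide.

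Direct and indirect ratios could be set side by side for each gene. Over the 35 genes, the direct ratio of a comparison and the one obtained through the third extract correlated at 0.965 to 0.987 in the 6 combinations of comparison and culture, against 0.754 to 0.867 over all transcripts. Both were taken after dye-swap partners were averaged, so differences between the partners do not show in them. Over all transcripts, the partners themselves correlated at 0.425 to 0.544 in the comparisons with control. In metformin against AICAR they correlated at 0.722 and 0.653. All these correlations are across genes, which are not replicates. Direct and indirect ratios use the same extracts on different arrays, so they are given with no test. All 4 arrays had the same sign for 21 of the 35 genes with metformin against control, 15 with AICAR against control and 19 with metformin against AICAR. Both cultures had the same sign for 27, 27 and 32 genes. Signs were not counted over all transcripts, and dye-swap partners share their extracts, so these counts are a description only.

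Beyond initiation, 27 of 29 genes of a list of initiation partners, elongation factors and termination factors were measured, mitochondrial factors included. This list too was chosen with earlier results of these data known. Under metformin, the RNA helicase gene DDX3X rose against control (0.76, SE 0.12, adjusted p = 0.0448) and PTBP1, which encodes a pyrimidine tract binding protein used by some internal ribosome entry sites, fell (-0.89, SE 0.12, adjusted p = 0.0349). In that comparison 1.5% of all transcripts passed as higher and 1.23% as lower. Under AICAR, PTBP1 fell against control (-0.99, SE 0.12, adjusted p = 0.0231) and no gene passed as higher, with 9 of 27 at an unadjusted p under 0.05, against 20.9% of all transcripts. There 2.89% of all transcripts passed as lower and 0.456% as higher. With metformin against AICAR, DDX3X (1.08) and MTIF3 (0.80), a mitochondrial initiation factor, passed as higher and none as lower, with 13 of 27 at an unadjusted p under 0.05, against 26.4% of all transcripts. Past the test there were 4.59% of all transcripts as higher and 2.01% as lower. The list medians were -0.07, 0.07 and -0.09. The 4 Argonaute genes did not pass in any comparison, and the furthest from 0 was AGO2 with metformin against AICAR (-0.58, SE 0.07, adjusted p = 0.0146). Of its 2 probes, 1 passed on its own there (-0.82, adjusted p = 0.00945).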

How the data were processed

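RNA of LNCaP cells was measured on 12 two-colour oligonucleotide arrays of 27648 features. The authors deposited log ratios, read here as log2, made with limma by loess for each print tip of a slide and then by quantiles across slides. Its version, the log base, the direction and any background correction are not given in the sources used here. Array means were 0 and medians ran from -0.0417 to 0.051. There are no intensities, so no filter on low values was possible, and precision is limited by how many arrays there are.

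Probes were named from the platform annotation through a RefSeq gene table: 14600 by accession, 2837 by symbol or synonym, 156 by the listed symbol, and 118 with conflicting names were left unnamed. In all, 10055 features, these included, had no name, and each was kept as a transcript of its own. Probes of a named gene were averaged, which gave 14486 named genes and 24541 transcripts in all. Shares, medians and correlations over all transcripts include the unnamed features, while the 35 genes are all named. The EIF4B mean includes 1 probe that the platform lists under another symbol.

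Ratios were turned to a common direction by the dyes in the labels, dye-swap partners were averaged, and least squares reduced the 6 ratios to 6 extract levels. To these, treatment was fitted with culture as the replicate block in limma 3.58.1 (R 4.3.3), with 2 residual and 2.88 prior degrees of freedom and Benjamini-Hochberg adjustment over all transcripts. The culture is the replicate number of the labels, which do not say that replicates were separate cultures. It pairs the samples because an array holds 2 extracts with the same replicate number. The thresholds are those of the study's methods.

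Members and lists were chosen with earlier results of these data known. The genes named were those past the test in any comparison, the highest and lowest of each factor in each comparison, EIF2S1, EIF4EBP1, EIF4E and EIF4G1, genes with probes over 1 apart, list genes past the test, and 4 genes that check the direction. EIF2B5, EIF3C, EIF4G2 and others named beyond this were chosen with their values in view. Alternatives were other ways to combine the arrays, other scalings, single probes, robust variances, no size threshold, and leaving out 3 arrays or a culture.

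The fit was tested on simulated data of 24541 transcripts. Of those given a true log2 ratio of 1 it recovered 78% for metformin against control (of 100), 70% for AICAR against control (of 100) and 85.5% for metformin against AICAR (of 200), and of those given 2 it recovered 98%, 99% and 99%. It called 6, 5 and 16 unchanged transcripts. The simulated noise was independent and normal, with spreads taken from these data, and 200 transcripts were changed for each compound. Differences between dye-swap partners were drawn at random, with no lasting dye effect of a gene, so these figures hold for those settings only.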

Additional observations from a re-analysis of the deposited data

Results flagged for a closer look

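In each comparison the 4 arrays of a gene were searched for 1 array far from the others, over 102 groups of 4 arrays, with EIF1AY left out. For independent arrays, chance would give about 1 such array in 20 groups, or 5.1 in all, and 3 were found. The arrays are dye-swap pairs of 2 cultures and not independent, so the true rate is not known. For EIF2B1 in AICAR against control, the culture 1 array with control in Cy5 read 0.35 and the other 3 from 0.05 to 0.10. For EIF2B5 in metformin against AICAR, the culture 2 array with AICAR in Cy5 read -0.51 and the other 3 from -0.21 to -0.16. For EIF3F in metformin against control, the culture 2 array with control in Cy5 read 0.65 and the other 3 from 0.15 to 0.22. None of these 3 ratios passed the test.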

How the results depend on the processing

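The replicate block is part of the fit reported, which is paired by culture and gave 2 genes higher and 1 lower for metformin against control, 0 and 1 for AICAR against control and 2 and 2 for metformin against AICAR. No fit without it can be made, because every ratio compares extracts of 1 culture. For metformin against control the count of higher genes was 0 with direct ratios only and without the 3 arrays apart, and 1 with median-centred arrays, scaled arrays, robust variances or probes tested singly. The count of lower genes was 0 with direct ratios only and without the 3 arrays, and 2 with arrays as separate data points, the 6 averaged ratios, a dye term or scaled arrays. For AICAR against control, higher genes numbered 1 with no size threshold or the 6 averaged ratios and 2 with separate arrays or a dye term, and lower genes 0 without the 3 arrays. For metformin against AICAR, lower genes numbered 4 with no size threshold, and 1 with scaled arrays or without the 3 arrays. Fits to separate arrays, to the 6 ratios or with a dye term take points of the same extracts as separate, and so count more than the 2 cultures. Leaving out the 3 arrays also leaves the dyes of AICAR against control unbalanced in culture 1. The cause of the other changes was not tested. Of 39 gene ratios followed, of which 8 were past the test, 5 lost the call without the 3 arrays and 3 with direct ratios only. The ratio of EIF4G3 for AICAR against control, 0.10 and not past the test, became -0.0083 without the 3 arrays. Leaving out a culture gives a value with no test, and all 8 kept their direction.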

Other observations

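The platform lists 10 genes with an EIF symbol in current nomenclature under other symbols, so the naming rule did not take them. They were looked at after their values were seen. EIF1, listed as SUI1 and encoding the factor that guards start codon selection, was above 0 on all 4 arrays of metformin against control, at 1.89 and 1.58 in culture 1 and 1.22 and 1.08 in culture 2. Its fitted ratio was 1.49 (SE 0.13, adjusted p = 0.0142), larger in size than that of any of the 35 genes in the same comparison. Against AICAR, metformin gave EIF1 a ratio of 0.96 (SE 0.13, adjusted p = 0.0164), with arrays from 0.94 to 1.10. With AICAR against control its arrays ran from 0.40 to 0.80, and the ratio of 0.53 did not pass (adjusted p = 0.0985).

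EIF4A3, listed as DDX48, is a relative of the eIF4A helicases that serves in the exon junction complex. With AICAR against control it fell, with arrays between -0.86 and -0.67 and a fitted ratio of -0.82 (SE 0.08, adjusted p = 0.0128). With metformin against control all 4 arrays were below 0 too, from -0.85 to -0.55, and the ratio of -0.68 had an adjusted p of 0.0235 without reaching the size of 0.7. The ratio of metformin to AICAR was 0.15 (adjusted p = 0.31). The other 8 genes, EIF1B, EIF2A, EIF2D, EIF3K, EIF3M, EIF4H, EIF6 and the pseudogene EIF3FP2, did not pass in any comparison. EIF2A had opposite signs in the cultures with metformin against control, 1.18 in culture 1 and -0.51 in culture 2.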
